A study of Homo sapiens with 6 samples.

Results

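The 6 genes examined here are known targets of the transcription factor MYC: VDAC1, PHB2, GOT2, NPM1, SNRPD1 and NHP2. They were looked up through the NFATc2-enriched islands within 5 kb of each gene, taken by the gene's approximate hg19 position and at any fold. Islands were found for 3 of the 6 genes, NPM1, SNRPD1 and NHP2, with 1 island each, so that 3 of the 32760 islands in the list belonged to these genes. No island lay within the same kind of distance of VDAC1, PHB2 or GOT2. The study's text does not name these 3, and whether it counted them as NFATc2-bound was not tested. The study places NFATc2 peaks by the start of the nearest gene, and no largest distance is stated in the sources used here. The islands came from chromatin immunoprecipitation with sequencing (ChIP-seq) in untreated THP-1 cells, a human monocytic line from acute myeloid leukaemia (AML) with the fusion gene MLL-AF9. NFATc2 IP libraries (antibody NFAT1 D43B1; 3 replicates) were set against Input DNA libraries (no antibody; 3 replicates), and all libraries were from this 1 line with no treatment. The 6 libraries were pooled before islands were called, so the list holds no value per replicate. All errors given are therefore counting errors in pooled reads, and the spread between biological replicates is not known. Formaldehyde-fixed chromatin was used, and a precipitate with IgG was not analysed here.

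NFATc2 belongs to the nuclear factor of activated T cells family, which enters the nucleus after calcineurin removes phosphates from it and binds DNA at sites with a GGAAA core. MYC binds as a dimer with MAX, mainly at E-boxes with the letters CACGTG, and is known for raising the output of genes for ribosome production, RNA processing and mitochondrial metabolism. VDAC1 is the main channel of the mitochondrial outer membrane, PHB2 is a prohibitin of the inner membrane, and GOT2 is the mitochondrial aspartate aminotransferase of the malate-aspartate shuttle. NPM1 is a nucleolar chaperone of ribosome assembly that is often mutated in AML. SNRPD1 is an Sm protein in the core of the spliceosomal snRNPs, and NHP2 is a protein of the H/ACA snoRNPs and of telomerase.

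The promoters of NPM1 and NHP2 are shown because an island lay near each gene, and that of PHB2 because it held the most NFAT core letters although no island lay near the gene. They are RefSeq sequences in GRCh38.p14, 250 bases before to 50 bases after the start of the main transcript. The islands are in hg19, and no position was carried between the builds, so whether an island covers these bases was not tested. Capitals mark the letters GGAAA (NFAT core) and CACGCG (a variant E-box), each on either strand; CACGTG was searched for too and was not there.
NPM1, chr5:171387599-171387898, plus strand: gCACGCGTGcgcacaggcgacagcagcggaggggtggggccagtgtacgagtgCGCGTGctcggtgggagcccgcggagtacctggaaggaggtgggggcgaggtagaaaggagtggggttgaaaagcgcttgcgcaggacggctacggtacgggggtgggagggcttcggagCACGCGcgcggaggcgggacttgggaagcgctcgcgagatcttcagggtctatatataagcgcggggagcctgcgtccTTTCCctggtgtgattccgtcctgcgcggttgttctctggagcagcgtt
NHP2, chr5:178153836-178154135, minus strand: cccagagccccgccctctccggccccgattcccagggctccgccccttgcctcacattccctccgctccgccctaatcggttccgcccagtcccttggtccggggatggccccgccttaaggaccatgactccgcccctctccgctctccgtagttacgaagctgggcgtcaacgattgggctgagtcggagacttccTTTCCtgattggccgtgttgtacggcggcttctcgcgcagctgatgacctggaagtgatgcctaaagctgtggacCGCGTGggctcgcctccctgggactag
PHB2, chr12:6970615-6970914, minus strand: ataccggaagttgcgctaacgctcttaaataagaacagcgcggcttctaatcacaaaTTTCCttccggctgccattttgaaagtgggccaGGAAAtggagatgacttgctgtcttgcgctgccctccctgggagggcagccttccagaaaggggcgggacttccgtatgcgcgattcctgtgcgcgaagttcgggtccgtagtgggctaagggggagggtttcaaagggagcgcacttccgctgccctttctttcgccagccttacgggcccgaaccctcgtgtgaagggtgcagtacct

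Islands lay near NPM1, SNRPD1 and NHP2, and none was found near VDAC1, PHB2 and GOT2. These genes were taken as shown in the study. It chose its peaks by a log2 fold change above 1 in this same list and measured expression after NFATC2 knockdown. The folds below therefore describe the genes and are not independent evidence of binding. For VDAC1, PHB2 and GOT2 no peak above a log2 fold change of 1 lay within the distances searched here. Which peaks, if any, the study tied to them was not tested. Gene positions were given to the nearest 10 kb. An island was therefore sought within 5 kb, plus 5 kb for the rounding, plus the length of the gene in RefSeq, on both sides. This search distance was 33.8 kb for NPM1, 31.2 kb for SNRPD1, 14.4 kb for NHP2, 153 kb for VDAC1, 15.4 kb for PHB2 and 37.2 kb for GOT2. Islands lay at 3 of 6 genes also when only 5 kb from the printed position was allowed.

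How often any position meets these distances depends on the chromosome, since islands are dense on some. Of positions every 10 kb along chromosome 5, 55.6% had an island within the distance used for NPM1 and 36.3% within that for NHP2; on chromosome 18, 5.50% had one within the distance used for SNRPD1. Islands above a log2 fold change of 1, such as those found at all 3 genes, were rarer: the shares were 1.76%, 0.797% and 0.499%. For the genes without an island, 86.8% of positions on chromosome 5 (VDAC1), 28.3% on chromosome 12 (PHB2) and 9.14% on chromosome 16 (GOT2) had an island within the same distance. For an island above a log2 fold change of 1 these shares were 7.49%, 0.549% and 0.747%. Over all chromosomes, 22.3% of such positions had any island within 10 kb, and 0.386% one above a log2 fold change of 1.

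**Figure D1:**
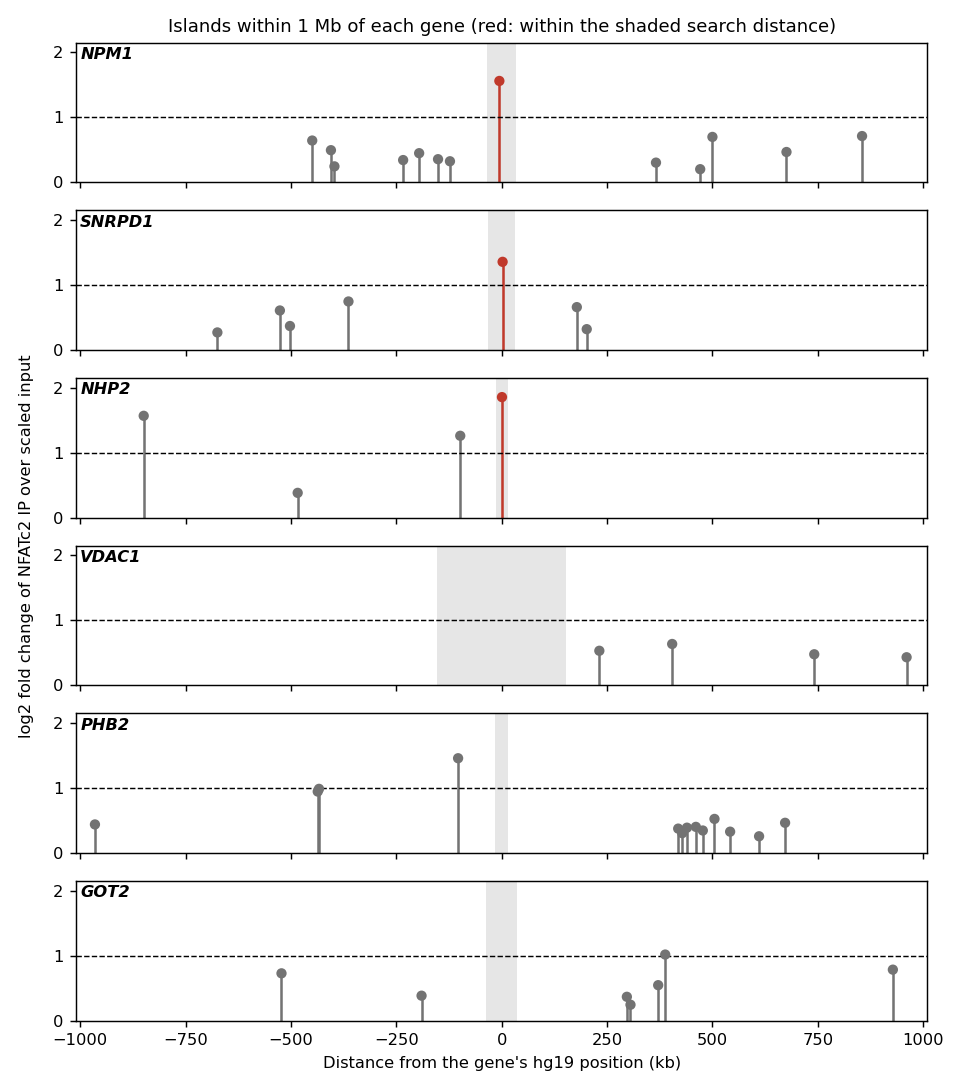
Islands within 1 Mb on either side of each gene's hg19 position (x axis, kb; shading marks the search distance), drawn at their log2 fold change (IP over input, y axis; dashed line at 1). NPM1, SNRPD1 and NHP2 each have 1 island (red) inside the shading, at 1.56, 1.36 and 1.86, and the shading of VDAC1, PHB2 and GOT2 is empty.

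NPM1 had the island with the most reads. It ran from 170814201 to 170815000 on chromosome 5 (800 bp, hg19), with an edge 5000 bp from the gene's rounded position. The rounding alone can shift this distance by 5 kb, here and for the islands below. It held 189 IP reads where the scaled input predicted 64.0, from 114 input reads. Its log2 fold change was 1.56 (95% counting interval 1.22 to 1.91), a fold of 2.95, with a −log10 FDR of 33.5 in the deposited list. It ranked 40th of 32760 islands by fold and 64th by p. The next island lay 115 kb away, and none of the 21 other islands within 2 Mb had a higher fold, their log2 values running from 0.20 to 1.08.

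NHP2 had the highest fold of the 3. Its island ran from 177580601 to 177581000 on chromosome 5 (400 bp), 601 bp from the gene's rounded position. It held 59 IP reads against 16.3 predicted from 29 input reads. The log2 fold change was 1.86 (1.19 to 2.55), a fold of 3.62, with a −log10 FDR of 13.7, which placed it 10th by fold and 198th by p. Strong islands were common around it. Of the 6 other islands within 2 Mb, 4 were above a log2 fold change of 1. The nearest, 97.4 kb from it and 2800 bp wide, held 431 IP and 320 input reads, with a log2 fold change of 1.26 (1.05 to 1.47). In RefSeq, NHP2 overlaps RMND5B, so an island near NHP2 may equally be counted to that gene.

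SNRPD1 had the smallest island, a single step of 200 bp from 19192201 to 19192400 on chromosome 18, 2201 bp from the gene's rounded position. It held 36 IP reads against 14.0 predicted from 25 input reads. The log2 fold change was 1.36 (0.58 to 2.16), a fold of 2.56, with a −log10 FDR of 5.49. Its counting interval includes 1, unlike those of NPM1 and NHP2. It ranked 101st by fold and 4447th by p, since p depends on the number of reads. Chromosome 18 held only 68 islands in all, and the next one lay 173 kb away.

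The 3 folds could not be ordered at this depth. NHP2 exceeded NPM1 by 0.30 on the log2 scale (95% counting interval -0.43 to 1.02), NPM1 exceeded SNRPD1 by 0.20 (-0.61 to 1.01), and NHP2 exceeded SNRPD1 by 0.50 (-0.48 to 1.47). These intervals do not show that the folds are alike, since differences of up to 1.02, 1.01 and 1.47 remain within them. The order also depended on the measure: by p, and by IP reads in excess of scaled input per kb, NPM1 came first. That excess was 156 reads per kb at NPM1, 110 at SNRPD1 and 107 at NHP2.

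**Figure D2:**
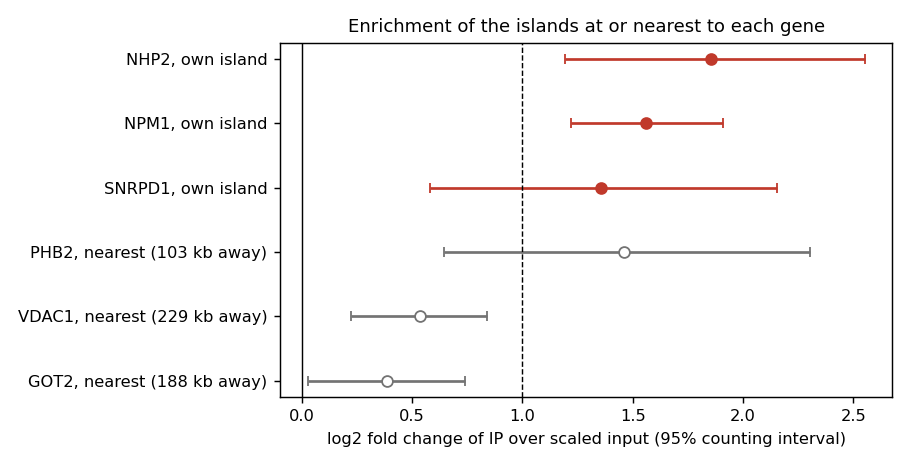
IP over input as a log2 fold change (x axis) with its 95% counting interval for the islands of NHP2, NPM1 and SNRPD1 (filled red) and for the island nearest to PHB2, VDAC1 and GOT2 (open grey, at 103, 229 and 188 kb). The 3 red intervals overlap, those of NHP2 and NPM1 lie above 1, and the island nearest to GOT2 reaches down to 0.03.

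VDAC1 was the gene farthest from any island. The nearest lay 229 kb away at higher coordinates, was 4800 bp wide and held 161 reads in the IP and 198 in the input, with a log2 fold change of 0.53 (0.22 to 0.84). At lower coordinates the next one was 1.12 Mb away. None of the 16 islands within 2 Mb was above a log2 fold change of 1, and the nearest above 1 was 2.82 Mb away.

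PHB2 had 2 islands of 200 bp on the side of lower coordinates, neither within its search distance. The nearer ran from 6976601 to 6976800 on chromosome 12 (200 bp), 103 kb from the gene's position, with 34 reads in the IP, 22 in the input and a log2 fold change of 1.46 (0.64 to 2.30). The other lay within 500 kb, at 0.95. On the other side the nearest lay 417 kb away, at 0.38 (0.02 to 0.73). In RefSeq the promoter of PHB2 overlaps that of EMG1, a gene for a ribosome assembly protein.

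GOT2 lay between islands with a fold close to the median of the list, 0.39. The nearest, 188 kb away and 4800 bp wide, held 116 IP and 158 input reads, with a log2 fold change of 0.39 (0.03 to 0.74). The nearest on the other side was 295 kb away, at 0.37 (0.02 to 0.72). One island above a log2 fold change of 1 lay 386 kb away, with 115 IP and 101 input reads over 3800 bp, at 1.02 (0.62 to 1.42). The next RefSeq protein-coding gene on that side is CDH8.

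Absence from the list is not absence of NFATc2. The list holds only islands at FDR below 0.05, and the fewest IP reads in any of them was 32. At the input density of the islands within 2 Mb, an island of 800 bp would have needed a log2 fold change of 0.86 at VDAC1, 0.81 at PHB2 and 1.01 at GOT2 to hold 32 IP reads. An island of 200 bp would have needed 2.86, 2.81 and 3.01. These values hold at that input density only, and narrow islands in the list had more input reads (median 112.5 per kb). Near PHB2, islands of 200 bp were listed at lower folds, 1.46 (110 input reads per kb) and 0.95. Over wider stretches, lower folds were also listed near the same genes (0.53 over 4800 bp at VDAC1, 0.38 over 3800 bp at PHB2 and 0.39 over 4800 bp at GOT2).

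The islands of NPM1, SNRPD1 and NHP2 were all narrow, and narrow islands are rare in the list: 161 of 32760 were 1000 bp or less. A log2 fold change above 1 was common among them. It was met by 1.58% of all islands (517) but by 56.5% of narrow ones (91 of 161), so that 3 of 3 above 1 has to be read against the second share, and the choice by fold in the study fixes it in part. Among the narrow islands, 5 had a higher fold than that of NHP2, 24 than that of NPM1 and 49 than that of SNRPD1. Among islands of exactly the same width, 2 of 41 were higher than NHP2 (400 bp), 4 of 40 than NPM1 (800 bp) and 9 of 25 than SNRPD1 (200 bp). The median log2 fold change was 1.28, 1.06 and 1.20 in these width classes, against 0.39 in the whole list.

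Unprecipitated DNA was also read more densely at NPM1, SNRPD1 and NHP2 than at the median island of the list. Input density was no criterion for the genes by itself, but input reads enter the fold by which the study chose its peaks, and a narrow island needs dense reads to be listed at all. Over the whole list the median was 42.1 input reads per kb, and over narrow islands it was 112.5 (quartiles 72.5 and 182). NPM1 held 142.5 input reads per kb, while the 21 other islands within 2 Mb held from 29.4 to 61.25 and 38.0 together. The ratio was 3.75 (two-sided exact binomial test; adjusted p = 1.2e-28, Benjamini-Hochberg over the 32380 islands with at least 5 neighbours). NPM1 therefore lay above every neighbour in input DNA as well as in the IP, where it held 236 reads per kb and its neighbours 21.0 to 72.5.

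SNRPD1 held 125 input reads per kb. Its neighbours included an island from 18510801 to 18520400 with 41876 input reads (4362 per kb), and with it the 7 neighbours together held 1093 per kb, so that SNRPD1 stood at 0.114 of them (exact binomial test, adjusted p = 7.9e-60). Without this 1 island, and with all others in the top 1% of input density left out, the remaining 6 neighbours held from 29.5 to 38.7 per kb and SNRPD1 stood at 3.77 times their joint density (adjusted p = 5.0e-06, same exact test). In the IP it held 180 reads per kb, against 25 to 32 in those 6.

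NHP2 held 72.5 input reads per kb, the least of the 3, and did not pass the test. The 6 neighbours ran from 32.0 to 114, with 56.0 together, a ratio of 1.29 (exact binomial test, adjusted p = 0.46). Without the 1 neighbour in the top 1% of input density, the other 5 held from 32.0 to 68.6. The ratio was then 1.73 (same exact test, adjusted p = 0.072). The IP reads of NHP2, 147.5 per kb, were within the range of its neighbours, 28.3 to 154, and above those of the same 5 (28.3 to 100). Input density at NHP2 was 0.509 times that at NPM1 (95% counting interval 0.338 to 0.765) and 0.580 times that at SNRPD1 (0.340 to 0.990), while NPM1 and SNRPD1 differed by less than counting error (1.14, 0.739 to 1.76). In the IP, NHP2 stood at 0.624 of NPM1 (0.466 to 0.836) and 0.819 of SNRPD1 (0.541 to 1.24). By point values, NHP2 thus had the highest fold with the fewest reads per kb in both kinds of library. Its differences in fold, and its IP density against SNRPD1, stayed within counting error.

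The test of input density called 1 of the 3 islands, that of NPM1, higher than its neighbours. Of all 32380 islands tested, 5.27% were called higher, and of 120 narrow ones 62.5%. Without the densest 1% of neighbours, 2 of the 3 were called, beside 5.59% of all islands tested and 77.7% of 112 narrow ones. With 3 islands, neither count sets them apart from narrow islands in general. The part of repeats, blacklisted regions, open chromatin or copy number in these input reads was not tested.

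**Figure D3:**
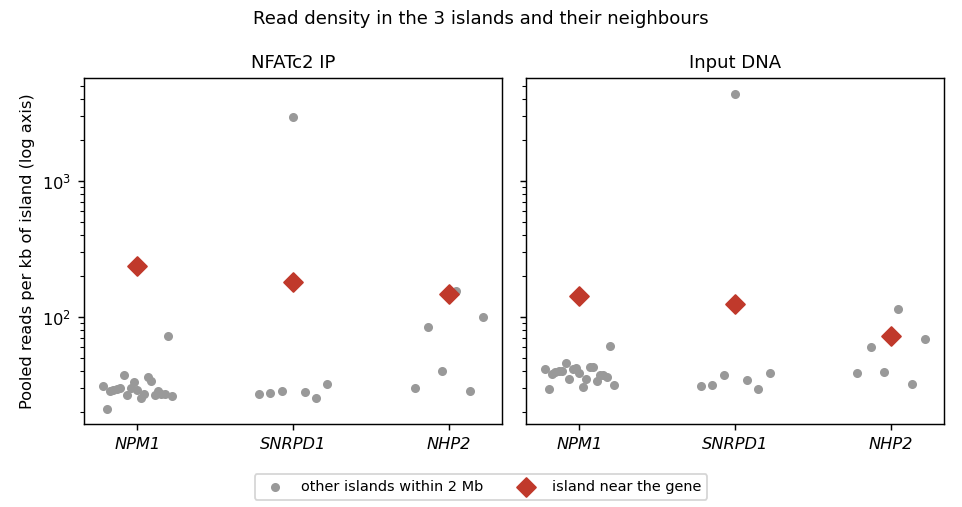
Pooled reads per kb (y axis, log scale) in NFATc2 IP (left) and Input DNA (right) for the islands near NPM1, SNRPD1 and NHP2 (red diamonds) and for the other islands within 2 Mb of each (grey). NPM1 lies above its neighbours in both panels. SNRPD1 and NHP2 each lie above all but 1 neighbour in both panels (4362 input reads per kb for SNRPD1 and 114 for NHP2).

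The letters CACGCG and GGAAA were found in promoters of genes with an island and of genes without one. With so few promoters, a relation between motif letters and islands was not tested. Of the 6 genes, 5 matched the RefSeq promoter table, SNRPD1 being the exception. The MYC E-box CACGTG was in 0 of the 5 promoters and in 7.26% of all 35116 promoters of this length. The variant E-box CACGCG was in 4 of 5 (all but PHB2) and in 11.4% of all; NPM1 had 4 matches, 2 of which overlap. The NFAT core GGAAA was in 4 of 5 (all but GOT2), with 2 matches in PHB2 and 1 each in VDAC1, NPM1 and NHP2, and in 61.2% of all promoters. It is a short motif that most promoters hold. The ETS letters CCGGAAG, which share GGAA with the NFAT core but not GGAAA, were in PHB2 alone (10.3% of all promoters), and the GC box GGGCGG was in PHB2, GOT2 and NHP2 (45%). CCAAT was in NHP2 alone (34.6%), and the palindromic NRF1 motif was in none (1.24%). All were searched on both strands, and a match is not a site.

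In 4 of the 5 promoters the share of G and C was above the median of all promoters, and in PHB2 it was below. NPM1 had 66.0% and NHP2 65.0%, VDAC1 70.7%, GOT2 63.0% and PHB2 57.0%, against a median of 58.7% over all promoters. NPM1 had 33 CpG pairs and NHP2 25, VDAC1 31 and PHB2 and GOT2 21 each, where the median was 14. The variant E-box CACGCG holds CpG pairs itself, and its share among promoters of like CpG count was not tested. Other MYC target genes were looked at for promoter letters only, because their hg19 positions were not used here. Of 36 listed genes, such as NCL, FBL, CDK4 and ODC1, 33 matched the table, and CACGTG was in 10 of them (30.3%), CACGCG in 9 (27.3%) and GGAAA in 23 (69.7%). CCGGAAG was in 7 (21.2%), GGGCGG in 24 (72.7%), CCAAT in 15 (45.5%) and the NRF1 motif in 0. The 36 genes were a chosen list, so these shares describe its matched genes only.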

How the data were processed

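THP-1 ChIP-seq libraries (3 NFATc2 IP and 3 Input DNA) were processed by the authors in Galaxy. Per the submitters' processing notes, reads were handled with BWA 0.7.17.1 and Trimmomatic 0.36.5. The notes also list ChIPseeker 1.18.0, SICER 0.0.52 and SAMtools 1.3.1, and give hg19 as the build. The paper names epic2 as island caller. The authors deposited 1 list of islands called on all libraries together in steps of 200 bp. Its deposited values are a score (the log2 fold change times 100, cut to a whole number), the log2 fold change between IP and scaled input, −log10 p and −log10 FDR. Blacklisted regions were not removed here.

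IP reads per island were solved from the fold and the Poisson p, and input reads then followed with a scaling factor of 0.562. They came out whole within 0.02 in 32751 of 32760 islands. The median island held 148 IP and 198 input reads. Counting intervals for single islands are exact (Clopper-Pearson, 95%), and those for differences and ratios use the delta method. They take reads as independent molecules and cover counting error only.

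Input reads of every island with at least 5 others within 2 Mb were compared with those neighbours, by width, in a two-sided exact binomial test with Benjamini-Hochberg adjustment (threshold 0.05). The code was tested on simulated data. Gene positions are in hg19, rounded to 10 kb. The reference used here is GRCh38, in which 14 chromosomes end before their last island. It served only for gene lengths, neighbouring gene names and promoter sequences (RefSeq, at the start of the MANE Select transcript, except for CCT5 in the MYC target list, whose window starts 257 bases off). Exon, intron and UTR annotation of the islands was not used here. Genes, lists and tests were chosen with earlier results of these data known. Named are the 6 genes and, as names only, their RefSeq neighbours and MYC targets of the promoter search. Other distances, folds, neighbourhoods, order measures and a single motif strand were tried as alternatives. Computation used matplotlib 3.10.9, pandas 2.3.3, scipy 1.17.1 and numpy 2.4.6 under Python 3.11.15.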

Additional observations from a re-analysis of the deposited data

How the results depend on the processing

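Islands were found at 3 of 6 genes within 5 kb, 10 kb or 100 kb of the position and at FDR below 0.001. Within 500 kb (this and 100 kb were chosen after seeing the data) all 6 genes had an island, and 5 had one above a log2 fold change of 1. Of the 3 islands, 2 (NPM1 and NHP2) were above 1.5, and NPM1 and NHP2 had a lower counting bound above 1. Without neighbours in the top 1% of input density, 2 islands were called higher than their neighbours, and SNRPD1 went from 0.114 to 3.77 times its neighbours, because 1 island of 41876 input reads was left out. Within 500 kb, SNRPD1 and NHP2 had fewer than 5 neighbours and were not tested, and with neighbours of 2000 bp or less none of the 3 islands could be tested. NHP2 minus NPM1 turned to -20.2 in −log10 p and to -49.4 in excess IP reads per kb, because NPM1 holds more reads. On the given strand only, CACGCG was in 2 of the 5 promoters (5.96% of all promoters), GGAAA in 1 (37.5%), GGGCGG in 1 (30.6%) and CCAAT in 0 (19.6%). The other alternatives left each count within 1.5 times and each direction as it was. No paired analysis was possible because islands were called on pooled libraries with no values for single replicates, which also kept any replicate from being left out. Depth limits SNRPD1 most, with 36 IP reads.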
